A study of Mus musculus with 20 samples.

Results

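The myogenic transcription factors are the proteins that make and keep a cell a muscle cell. The 8 described here are the 4 myogenic regulatory factors Myod1, Myog (myogenin), Myf5 and Myf6 (also called MRF4), the muscle stem cell factor Pax7, and the 3 MEF2 genes Mef2a, Mef2c and Mef2d. They were taken by gene symbol from a table of 21844 genes, in which each of the 8 stands on 1 row, and all 8 were among the 14359 genes abundant enough to test.

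The regulatory factors are basic helix-loop-helix proteins that pair with E proteins and bind E-boxes, short DNA motifs in the promoters of muscle genes. The MEF2 proteins bind AT-rich sites in many of the same promoters and are held in check by class IIa histone deacetylases. In adult muscle Pax7 and Myf5 mark satellite cells, the stem cells that lie on the fibres, while Myf6 is the regulatory factor most abundant in mature fibres and Myog is known to rise after loss of nerve activity.

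RNA was sequenced from hindlimb muscle of mice that all carried the genotype Cre+:iMSBmal1 fl/fl, a floxed Bmal1 gene with an inducible, muscle-specific Cre. Bmal1, listed here under its symbol Arntl, encodes the activator at the centre of the circadian clock. Mice were labelled vehicle (Vehicle) or knockout (iMSBmal1KO), and were either sedentary or trained daily on a treadmill for 6 weeks. The 4 groups of 5 libraries were thus vehicle sedentary, knockout sedentary, vehicle trained and knockout trained, and the vehicle groups carried the same floxed alleles and Cre as the knockout groups. The labels name neither the promoter that drives Cre, nor the inducing agent, nor age or sex. Mouse lines of this name use a skeletal actin promoter, which is active in fibres and not in satellite cells. The labels disagree on the muscle (gastrocnemius or tibialis anterior) and on the time of collection (48 hours in one field, 47 hours after the last bout in another).

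Total estimated counts per library lay between 10610333 and 19153527. Values are given in CPM, the estimated count of a gene scaled to a common library total, with the mean ± SD over samples. Knockout-trained libraries 1 and 4, and libraries 3 and 5, differed by noise that hardly grew with the count. At high counts it was 1.25 and 0.87 times that at low counts, where it was 1.90 and 2.01 times pure sampling noise. Each pair was therefore summed and counted as 1 sample, which left n = 3 in that group and 18 samples in all. Whether the other libraries came from separate mice is not stated, so p-values measure the spread between these samples. The 11 marker genes of muscle fibres, Acta1 and Ckm beside genes of fast fibres, were all present in each group. Their summed levels lay between 88357 and 115142 CPM outside 1 library.

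Vehicle-trained library 2 stood apart from the others: 77.3% of tested genes lay outside the range of the other 4 vehicle-trained libraries. Values without it stand beside the results that it turns in sign, takes across the threshold or moves by over 1.5 times. Arntl did not fall in the groups labelled knockout. Its level was 6.79 ± 0.890 CPM in vehicle sedentary muscle (n = 5), 13.2 ± 3.28 in knockout sedentary muscle (n = 5), 10.9 ± 4.45 in knockout trained muscle (n = 3) and 6.45 ± 0.156 in vehicle trained muscle without library 2 (n = 4), while library 2 held 132 CPM. These counts cover the whole gene and do not show whether the floxed part is present, so the level does not check the labels, and "knockout" below means the libraries labelled so.

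The promoter of Myog is shown because it is the regulatory factor through which Myod1 and MEF2 proteins are known to meet on one promoter. The sequence covers the 250 bases before the RefSeq start site, chr1:134289754-134290003 on the plus strand of GRCm38.p6, 5′ to 3′, and capitals mark 2 E-boxes (CANNTG) and 1 MEF2-type match (CTANNNNTA).
Myog: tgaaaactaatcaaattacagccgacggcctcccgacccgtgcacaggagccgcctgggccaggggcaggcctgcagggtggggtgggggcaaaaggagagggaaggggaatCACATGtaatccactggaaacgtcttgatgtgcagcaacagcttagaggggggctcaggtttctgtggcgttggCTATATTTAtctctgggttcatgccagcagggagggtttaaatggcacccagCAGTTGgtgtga
Counted from the start site, the E-boxes lie at -138 to -133 and -12 to -7, and the MEF2-type match at -64 to -56. Both motifs were searched on both strands, and the matches do not overlap. Such matches are common: CANNTG stood in 66.2% and CTANNNNTA in 19.0% of 32851 promoter windows of 250 bases. The members Myog, Myf5, Pax7, Mef2a, Mef2c and Mef2d (6 of 8) had a promoter in the RefSeq table, with 8 windows because Mef2c has several start sites. None of these 8 windows held CACGTG, the E-box that clock factors bind best, which stood in 6.02% of all windows.

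Set on one scale per length (CPM per kilobase of annotated exon), the factors of mature fibres led. In vehicle sedentary muscle Myf6 stood highest at 113 ± 11.0 CPM per kilobase. Mef2d at 43.2 ± 3.04 and Mef2c at 42.3 ± 2.53 followed and did not differ beyond their spread. Myod1 came next at 26.2 ± 4.56, then Mef2a at 13.5 ± 1.18 and Myog at 4.64 ± 0.495. The satellite cell factors stood lowest, Myf5 at 1.95 ± 0.606 and Pax7 at 0.914 ± 0.285 (n = 5 for each). The length used joins the exons of all annotated transcripts of a gene. It was 15715 bases for Mef2c and 14681 for Mef2a, against 1263 for Myf6 and 1861 for Myod1. It may exceed that of the transcripts present, so this order depends on it. In CPM, Mef2c (665 ± 39.8), Mef2d (258 ± 18.2) and Mef2a (198 ± 17.4) stood above Myf6 (143 ± 13.8). In a whole muscle, fewer cells of a type and less RNA per cell cannot be told apart, which touches Pax7 and Myf5 above all.

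**Figure D1:**
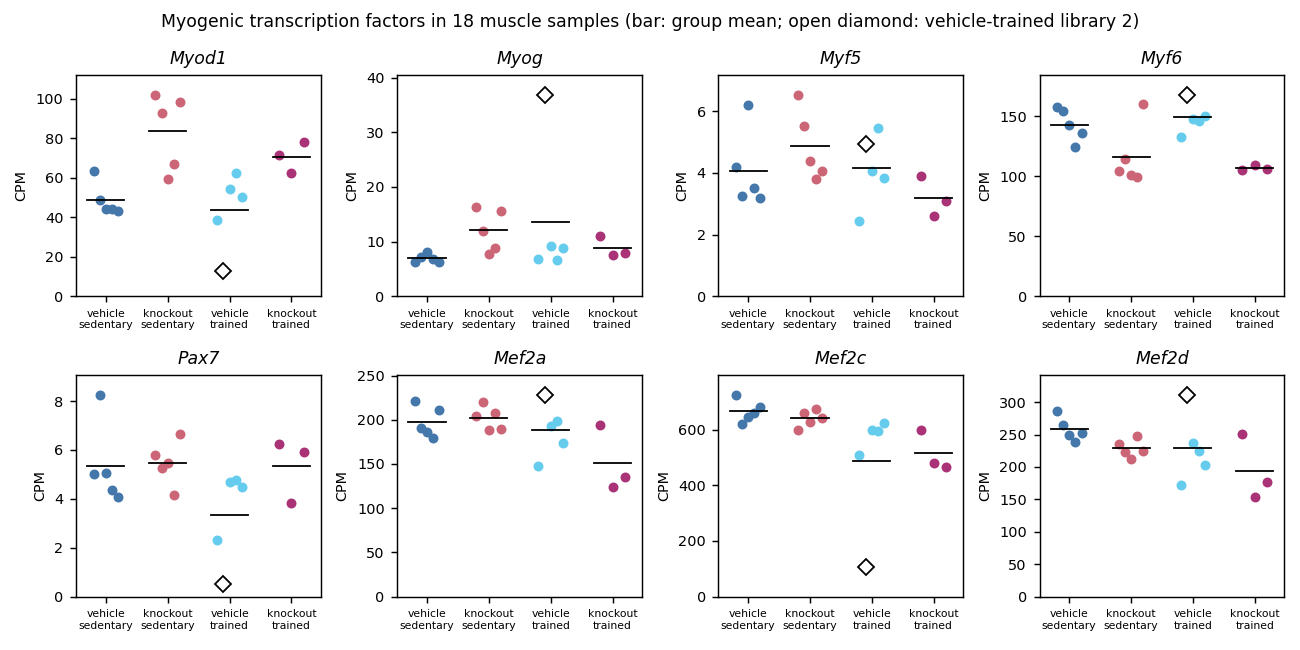
Levels of the 8 factors in CPM (vertical axes, each from 0) in each of the 18 samples, by group (horizontal axis), with a bar at the group mean and an open diamond for vehicle-trained library 2. Most Myod1 points of the knockout sedentary group lie above the vehicle sedentary points, Myf6 points of the knockout trained group lie below all vehicle trained points, and the diamond leaves its group for Myod1, Myog, Pax7 and Mef2c.

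In sedentary muscle the groups labelled knockout and vehicle differed most in Myod1 and Myog, which were higher in knockout muscle, and in Myf6, which was lower. Across the 18 samples, 0 of the 8 factors passed the threshold of an adjusted p of 0.05 (edgeR's quasi-likelihood test, Benjamini-Hochberg over all tested genes), where 2.33% of all tested genes did. At an unadjusted p under 0.05 there were 2 factors, Myod1 and Myf6, beside 9.81% of all genes. Without vehicle-trained library 2, which belongs to neither sedentary group but enters the common estimate of the spread, Myod1 and Myog passed, 2 of 8 beside 6.98% of all genes. A fit of the 2 sedentary groups alone called the same 2 factors, beside 8.20% of all genes.

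Myod1, the factor that commits cells to the muscle lineage, stood at 63.4, 48.6, 44.0, 44.4 and 43.2 CPM in vehicle sedentary libraries 1 to 5. In the knockout sedentary libraries it stood at 102, 92.6, 59.4, 66.7 and 98.4 CPM. Only knockout library 3 lay below the highest vehicle library, so the groups overlapped by that 1 value. The means were 48.7 ± 8.48 and 83.9 ± 19.4 CPM (n = 5 each), a log2 change of 0.73 (SE 0.276, adjusted p = 0.288). Without vehicle-trained library 2 the change was 0.74 (SE 0.162, adjusted p = 0.00645), and an exact two-sided permutation test of log2(CPM + 1) over the 10 sedentary libraries gave p = 0.0159, where 0.00794 is the smallest it can give.

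Myog, which drives the final differentiation of muscle cells, held 6.34, 7.25, 8.04, 6.80 and 6.23 CPM in the vehicle sedentary libraries. Knockout sedentary libraries 1 to 5 held 16.4, 12.0, 7.67, 8.86 and 15.6 CPM. As for Myod1, knockout library 3 alone lay within the vehicle range, and libraries 1 and 5 lay highest in both genes. The means were 6.93 ± 0.739 and 12.1 ± 3.89 CPM (n = 5 each), a log2 change of 0.75 (SE 0.411, adjusted p = 0.633) over all samples and of 0.76 (SE 0.191, adjusted p = 0.0172) without vehicle-trained library 2. The exact permutation test gave p = 0.0159.

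Myf6, the regulatory factor of mature fibres, ran the other way. It held 158, 154, 143, 124 and 136 CPM in the vehicle sedentary libraries and 104, 114, 101, 99.8 and 160.1 CPM in the knockout sedentary libraries. Knockout library 5 held the highest value of the 10, and the other 4 lay below every vehicle library. The means were 143 ± 13.8 and 116 ± 25.5 CPM, a log2 change of -0.36 (SE 0.142, adjusted p = 0.333, exact permutation p = 0.0635). Each sample was also left out in turn. Without knockout sedentary library 5, the 1 against the direction, the change was -0.53 and passed the edgeR test (adjusted p = 0.0217). In that fit 266 of all 14359 tested genes passed. Over all 27 other settings Myf6 passed in 2.

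Pax7 and Myf5, the satellite cell factors, showed no difference beyond the spread in sedentary muscle. Pax7 held 5.36 ± 1.67 CPM in vehicle and 5.47 ± 0.895 CPM in knockout libraries, with 4.09 to 8.25 CPM in the former and 4.17 to 6.64 CPM in the latter. Its log2 change was -0.02 (SE 0.353, adjusted p = 1.00), so a change of moderate size in either direction lies within the error. Myf5 held 4.07 ± 1.26 and 4.86 ± 1.14 CPM, a log2 change of 0.20 (SE 0.230, adjusted p = 0.963).

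The MEF2 genes differed little between the sedentary groups. Mef2a held 198 ± 17.4 CPM in vehicle and 202 ± 13.6 CPM in knockout libraries (log2 change -0.03, SE 0.133, adjusted p = 1.00). Mef2c, the highest of the 3 in CPM, held 665 ± 39.8 and 640.1 ± 30.2 CPM (log2 change -0.11, SE 0.281, adjusted p = 0.996), and its SE fell to 0.0882 without vehicle-trained library 2. For Mef2d the vehicle libraries held 286, 265, 249, 238 and 253 CPM and the knockout libraries 235, 223, 213, 248 and 225 CPM. Of the knockout libraries only library 4 exceeded the lowest vehicle library. The log2 change of Mef2d was -0.23 (SE 0.153, adjusted p = 0.779), and the exact permutation test, not adjusted for the number of genes, gave p = 0.0159. The exons of Mef2a share 302 bases with Lysmd4 and those of Mef2d share 531 bases with 1700113A16Rik, in both cases on the opposite strand, and whether counting used strand is not given in the sources used here.

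**Figure D2:**
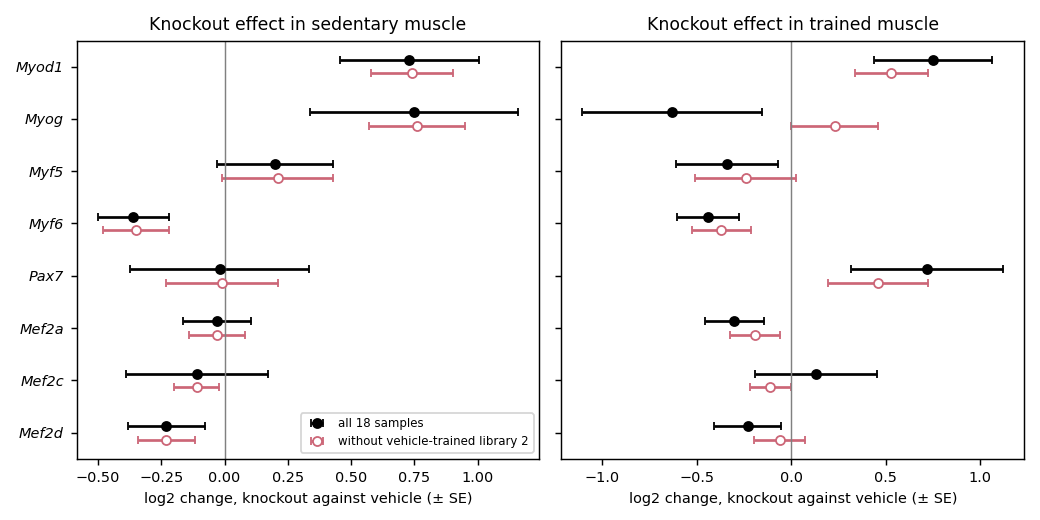
Log2 change of the 8 factors, knockout against vehicle (horizontal axes), in sedentary muscle (left) and trained muscle (right), with bars of 1 SE, from all 18 samples (black) and without vehicle-trained library 2 (open). In sedentary muscle Myod1 and Myog lie at 0.73 and 0.75 and their bars shorten without that library, and in trained muscle the point of Myog moves from -0.63 to 0.23.

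In trained muscle Myod1 again stood higher and Myf6 lower in the knockout group, while the direction for Myog depended on 1 library. Again 0 of 8 factors passed the test (3.29% of all tested genes did), both with all samples and without vehicle-trained library 2 (8.66% of all genes). Myod1 and Myf6 were the 2 with an unadjusted p under 0.05, beside 17.2% of all genes.

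Myod1 held 38.4, 12.9, 54.3, 62.2 and 50.1 CPM in vehicle trained libraries 1 to 5. It held 71.4, 62.2 and 78.1 CPM in the 3 knockout trained samples (libraries 1 with 4, library 2, and libraries 3 with 5). The lowest knockout sample lay just below the highest vehicle library. The log2 change was 0.75 (SE 0.312, adjusted p = 0.217), and without vehicle-trained library 2, which held the lowest Myod1 level of all samples, it was 0.53 (SE 0.193, adjusted p = 0.0990, exact permutation p = 0.114).

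Myf6 separated the trained groups. Its levels were 133, 168, 148, 146 and 150.3 CPM in the vehicle trained libraries and 105, 109 and 106 CPM in the knockout trained samples, with no overlap. Groups without overlap occurred in 7.95% of all tested genes in this comparison, and in 14.5% without library 2. The log2 change was -0.44 (SE 0.166, adjusted p = 0.174), and the exact permutation test gave p = 0.0357, where 5 against 3 samples cannot go below 0.0179. Without vehicle-trained library 2 the change was -0.37 (SE 0.157, adjusted p = 0.168, exact permutation p = 0.0571). With all 20 libraries as separate samples, the adjusted p for Myf6 was 0.0470, beside 1225 of all 14359 tested genes that passed. That setting counts the libraries of each summed pair separately, though their noise hardly grew with the count, so it overstates the number of samples.

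For Myog the vehicle trained libraries held 6.83, 36.9, 9.23, 6.55 and 8.86 CPM and the knockout trained samples 11.1, 7.57 and 7.99 CPM. Library 2 alone put the vehicle mean at 13.7 ± 13.1 CPM, against 7.87 ± 1.37 CPM without it and 8.88 ± 1.92 CPM in knockout muscle. The log2 change was -0.63 (SE 0.475, adjusted p = 0.529) with this library and 0.23 (SE 0.229, adjusted p = 0.613) without it.

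Pax7 held 2.30, 0.528, 4.68, 4.78 and 4.49 CPM in the vehicle trained libraries and 6.26, 3.82 and 5.92 CPM in the knockout trained samples. The log2 change was 0.72 (SE 0.404, adjusted p = 0.376), and 0.46 (SE 0.264, adjusted p = 0.323) without library 2, whose value rests on 8 counts. Myf5 held 4.15 ± 1.16 CPM (n = 5) and 3.19 ± 0.649 CPM (n = 3), a log2 change of -0.34 (SE 0.269, adjusted p = 0.545).

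Among the MEF2 genes, knockout trained samples were uneven. Mef2a held 194, 124 and 135 CPM, Mef2d 251, 154 and 176 CPM and Mef2c 599.8, 480.3 and 466 CPM in these 3 samples, so that the pair of libraries 1 and 4 was highest for all 3 genes. Against vehicle trained muscle the log2 changes were -0.30 for Mef2a (SE 0.155, adjusted p = 0.337) and -0.23 for Mef2d (SE 0.178, adjusted p = 0.539). With vehicle-trained library 2 left out, which held the highest Mef2a and Mef2d of its group, they were -0.19 (SE 0.133, adjusted p = 0.437) and -0.06 (SE 0.135, adjusted p = 0.838). The value for Mef2c turned sign with vehicle-trained library 2, from 0.13 with it (SE 0.323, adjusted p = 0.872) to -0.11 without it (SE 0.107, adjusted p = 0.588).

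Training for 6 weeks gave no change in these factors that passed the test, in vehicle or in knockout muscle, and neither did any other tested gene (0% in each comparison). Without vehicle-trained library 2, 0 of 8 factors passed in either, and 0% of all genes in vehicle and 0.843% in knockout muscle. At an unadjusted p under 0.05 the edgeR test listed 1 factor in vehicle muscle (15.2% of all genes) and 0 in knockout muscle (9.71%). DESeq2 called 15 genes over all in vehicle and 198 in knockout muscle, and no factor in either. It gave an adjusted p to 14095 genes in vehicle but only 6656 in knockout muscle, and a factor without one could not be called.

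The 1 factor in vehicle muscle was Myog, with a log2 change of 1.06 (SE 0.412, adjusted p = 0.281) that fell to 0.22 (SE 0.206, adjusted p = 0.637) without library 2. Mef2d held 172, 311, 237, 224 and 203 CPM in the vehicle trained libraries. Without library 2, the other 4 lay below all 5 vehicle sedentary libraries, and groups without overlap occurred in 4.91% of tested genes. The log2 change of Mef2d was -0.12 (SE 0.153, adjusted p = 0.701) with and -0.27 (SE 0.119, adjusted p = 0.365, exact permutation p = 0.0159) without that library. Mef2c held 509, 106, 597, 593 and 622 CPM after training, and its log2 change was -0.43 (SE 0.281, adjusted p = 0.449) with and -0.17 (SE 0.0938, adjusted p = 0.444) without library 2. For Pax7 the log2 change was -0.63 (SE 0.360, adjusted p = 0.394) with and -0.35 (SE 0.237, adjusted p = 0.506) without library 2. That of Myf6 was 0.11 (SE 0.142, adjusted p = 0.698) with and 0.05 (SE 0.136, adjusted p = 0.900) without it.

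In knockout muscle no factor passed the test for training, and changes of moderate size lie within the error. The largest difference was that of Myf5, from 4.86 ± 1.14 to 3.19 ± 0.649 CPM (log2 change -0.47, SE 0.269, adjusted p = 0.643). Log2 changes of other factors were -0.29 for Mef2a (SE 0.155, adjusted p = 0.600), -0.32 for Myog (SE 0.472, adjusted p = 0.964), -0.18 for Mef2c (SE 0.326, adjusted p = 0.973) and -0.11 for Myod1 (SE 0.317, adjusted p = 0.990).

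Whether the knockout difference itself depended on training was tested as an interaction. No factor passed, nor did any other gene (0% of all tested), and 1 factor, Myog, had an unadjusted p under 0.05 (7.49% of all genes). Its interaction was -1.38 on the log2 scale (SE 0.630, adjusted p = 0.661) and -0.53 (SE 0.299, adjusted p = 0.511) without vehicle-trained library 2. For Pax7 it was 0.74 (SE 0.539, adjusted p = 0.739) and 0.47 (SE 0.344, adjusted p = 0.639) without that library. DESeq2 called 26 genes in this test, none of them a factor. It gave an adjusted p to only 3123 genes here, and a factor without one could not be called.

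Vehicle-trained library 2 differed from the other 4 vehicle-trained libraries in opposite directions within the family. Myod1 was 3.98-fold lower (12.9 against 51.3 ± 9.93 CPM), Mef2c 5.45-fold lower (106 against 580.2 ± 49.3 CPM) and Pax7 7.69-fold lower (0.528 against 4.06 ± 1.18 CPM). Myog was 4.69-fold higher (36.9 against 7.87 ± 1.37 CPM). Mef2d was 1.49-fold, Mef2a 1.27-fold, Myf5 1.25-fold and Myf6 1.16-fold higher. Thus 4 of 8 factors were past 2-fold and 7 of 8 outside the range of the other 4, beside 34.3% and 77.3% of all tested genes. This is 1 library, so the comparison has no replicate.

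**Figure D3:**
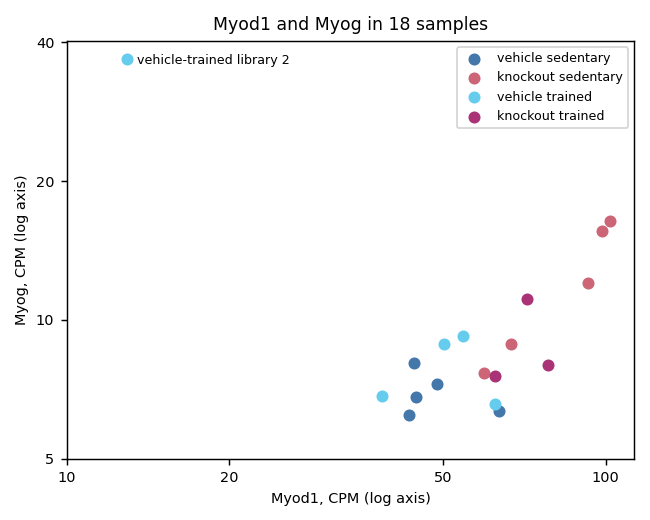
Myod1 (horizontal, CPM, log axis) against Myog (vertical, CPM, log axis) in the 18 samples, coloured by group. Vehicle-trained library 2 stands alone at 12.9 CPM Myod1 and 36.9 CPM Myog, and the 3 samples highest in Myod1 among the rest are knockout sedentary libraries.

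Genes named next for this library were chosen after their values were seen. Sik1, a kinase that phosphorylates class IIa histone deacetylases, stood at 479 CPM against 14.3 ± 1.73 CPM in the other 4. Hdac4 stood at 108 against 41.9 ± 3.21 CPM, while Hdac9 stood at 2.64 against 11.1 ± 1.38 CPM. Ppargc1a, the coactivator of mitochondrial genes, stood at 556 against 63.5 ± 10.2 CPM and the actin-binding gene Xirp1 at 1552 against 116 ± 11.9 CPM. Cdkn1a, the cell cycle inhibitor p21, stood at 801 against 9.46 ± 1.53 CPM. Marker sums moved too: the 11 muscle fibre genes summed to 70098 CPM against 88357 to 105597, the 9 macrophage genes to 477 against 180.3 to 437, and the 6 adipocyte genes to 169.5 against 222 to 1058, with 1 of these 6 at 0. Their part in the levels of the factors was not tested.

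Pairs of factors were compared across samples after removing each group's mean, with permutations within groups (28 pairs). Mef2a and Mef2d moved together: Pearson's r was 0.92 (permutation p = 0.00013, adjusted p = 0.0036) and Spearman's rho 0.85 (permutation p = 0.00080, adjusted p = 0.022) over 18 samples. Without the 2 samples farthest in Mef2a r was 0.86, and without vehicle-trained library 2 it was 0.92 (permutation p = 0.00066, adjusted p = 0.018, n = 17). How often pairs of genes in general reach such an r is not given here. With groups included, over the 17 samples, Akap9 was more like Mef2a (0.953) and Nfic more like Mef2d (0.959) than the 2 factors were like each other. Whether this relation is particular to the pair was not tested. No other pair of factors passed the adjustment. The next smallest p over 18 samples was that of Myod1 and Pax7, with r = 0.86 and rho = 0.70 (permutation p = 0.0040 and 0.0060, adjusted p = 0.056 and 0.084), and r was 0.59 without the 2 farthest samples. Leaving out vehicle-trained library 2 gave r = 0.56 and rho = 0.54 for this pair (permutation p = 0.025 and 0.039, adjusted p = 0.14 and 0.14), and the next smallest p was then that of Mef2a and Mef2c, with r = 0.82 and rho = 0.78 (permutation p = 0.0094 and 0.0065, adjusted p = 0.13 and 0.091). For Myod1 and Myog r was -0.61 (rho -0.07, permutation p = 0.19 and 0.82, adjusted p = 0.39 and 0.92). Without vehicle-trained library 2 it was 0.56 (rho 0.53, permutation p = 0.080 and 0.081, adjusted p = 0.16 and 0.17), and r was 0.37 with the 2 farthest samples also left out.

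Over the 17 samples other than vehicle-trained library 2, groups included, the genes most like each factor were ranked by Pearson's r of log2(CPM + 1). They share libraries and depth with the factor, and r is given as a description. Several of these likenesses are lost when library 2 is added back: over 18 samples r was 0.208 for Dusp5 and 0.146 for Lrrc30 with Myod1, -0.330 for Prr12 with Myog, 0.284 and 0.281 for Zfp759 and Zfp260 with Myf5, 0.244 for Ywhag with Myf6, 0.514 for Kifbp with Pax7 and 0.017 for Nfic with Mef2d. Over the 17 samples Myod1 was most like the phosphatase gene Dusp5 (r = 0.921) and Lrrc30 (0.914), and Myog most like the small heat shock gene Hspb8 (0.859) and Prr12 (0.845). Dusp5 had a mean of 1.34 CPM, near the limit of 1 CPM for testing, so its r rests on low counts. Myf6 was most like Phlda3 (0.894) and Ywhag (0.858), Myf5 most like the zinc finger genes Zfp759 (0.849) and Zfp260 (0.846), and Pax7 most like Bbs10 (0.830) and Kifbp (0.808). Svil, the gene of the membrane and actin linker supervillin, stood among the top 2 of both Mef2a (0.952) and Mef2d (0.951), beside Akap9 for Mef2a (0.953) and Nfic for Mef2d (0.959). Mef2c was most like Ankrd28 (0.951) and Cacna2d1, a subunit of the muscle calcium channel (0.938).

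Among genes known as targets of the regulatory factors, those for 2 subunits of the acetylcholine receptor, Chrna1 and Chrnb1, rose in knockout muscle. Of 14 tested genes of this list, 2 rose and 0 fell in sedentary muscle, and 3 rose and 0 fell in trained muscle. Over all tested genes, 1.02% rose and 1.31% fell in sedentary muscle, and 1.99% rose and 1.30% fell in trained muscle. With vehicle-trained library 2 left out, 5 of the 14 rose in sedentary and 6 in trained muscle and 0 fell in either, beside 3.14% and 5.01% of all genes that rose and 3.84% and 3.65% that fell. The median log2 change was 0.22 in sedentary and 0.33 in trained muscle, beside 0.01 and -0.03 over all tested genes, and in trained muscle it was 0.61 without vehicle-trained library 2, beside 0.00. Of the other subunits, Chrnd and Chrne had log2 changes of -0.01 and 0.09 in sedentary muscle (adjusted p = 1.00 for both) and 0.97 and 0.94 in trained muscle (adjusted p = 0.0914 and 0.178).

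Chrna1, the α subunit of the receptor, held 16.9, 15.9, 12.2, 11.9 and 14.5 CPM in the sedentary vehicle group and 27.6, 41.3, 31.8, 33.8 and 43.9 CPM in the sedentary knockout group. The groups did not overlap (9.40% of all tested genes did not), and the log2 change was 1.27 (SE 0.160, adjusted p = 0.000109). In trained muscle Chrna1 held 10.7 ± 1.79 CPM in vehicle libraries other than 2, 9.38 CPM in library 2 and 37.9 ± 3.42 CPM in knockout samples (n = 3), a log2 change of 1.90 (SE 0.179, adjusted p = 8e-06). Chrnb1, the β subunit, rose by 1.36 in sedentary muscle (SE 0.261, adjusted p = 0.00581), from 30.2 ± 4.48 to 80.5 ± 17.0 CPM. In trained muscle it rose by 1.24 (SE 0.290, adjusted p = 0.0232), but by 0.73 (adjusted p = 0.180) without knockout trained libraries 1 and 4, which held 127 CPM against 42.4 and 55.8 CPM in the other 2 samples.

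Actc1, the actin of embryonic and cardiac muscle, held 49.6 ± 9.58 and 127 ± 24.0 CPM in sedentary muscle (log2 change 1.30, SE 0.391, adjusted p = 0.111), and passed the test without vehicle-trained library 2 (SE 0.158, adjusted p = 1.9e-05). In trained muscle it rose by 2.39 (SE 0.438, adjusted p = 0.00433), to 152 ± 25.6 CPM. Cdkn1a, in sedentary muscle, stood at 9.01 ± 1.28 CPM with vehicle and at 128 ± 24.5 CPM with knockout, with every knockout library above every vehicle library. Its log2 change was 3.76 (SE 1.12, adjusted p = 0.106) with and 3.77 (SE 0.215, adjusted p = 4.56e-09) without vehicle-trained library 2. In trained muscle the change of Cdkn1a was -0.46 (adjusted p = 0.879) with that library and 3.79 (SE 0.247, adjusted p = 9.27e-08) without it. The same list also holds Ckm, muscle creatine kinase, at a mean of 12454 CPM, with a log2 change of -0.17 in sedentary muscle (SE 0.132, adjusted p = 0.866).

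**Figure D4:**
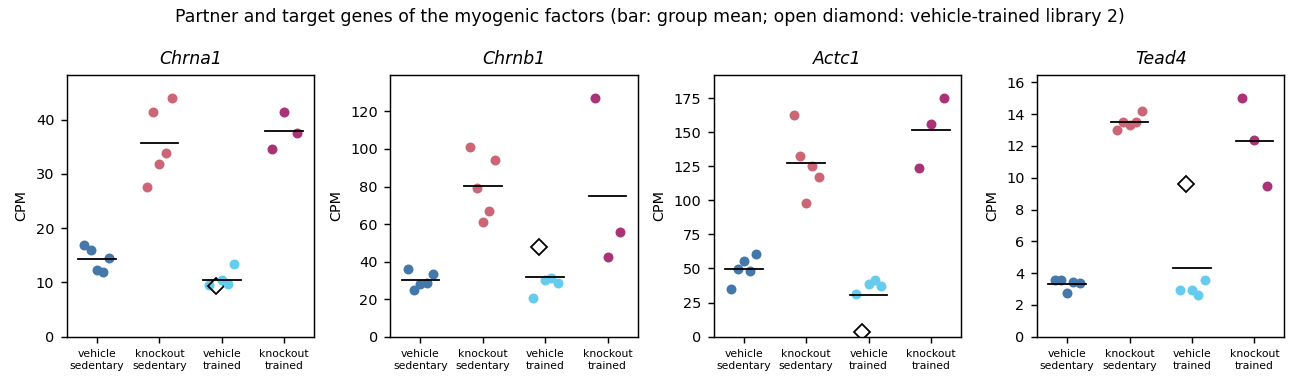
Levels in CPM (vertical axes, each from 0) of the receptor subunits Chrna1 and Chrnb1, of Actc1 and of the cooperating factor Tead4 in each of the 18 samples, by group, with a bar at the group mean and an open diamond for vehicle-trained library 2. In sedentary muscle all 5 knockout libraries lie above all 5 vehicle libraries for each gene, and the diamond is the lowest Actc1 value, 3.04 CPM.

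Factors that act upstream of or beside the regulatory factors changed singly. Of 19 tested, 1 rose and 1 fell in sedentary muscle (1 and 4 without vehicle-trained library 2), and 2 rose and 0 fell in trained muscle. Over all tested genes 1.02% rose and 1.31% fell in sedentary muscle (3.14% and 3.84% without that library), and 1.99% and 1.30% in trained muscle. The median log2 change of these factors was -0.06 and 0.08, beside 0.01 and -0.03 over all tested genes. Without vehicle-trained library 2 the trained median was 0.01, beside 0.00. Tead4, a DNA-binding partner of YAP that Myod1 is known to activate, stood at 3.56, 3.53, 2.77, 3.46 and 3.36 CPM in the sedentary vehicle group and at 13.0, 13.5, 13.3, 13.5 and 14.2 CPM in the sedentary knockout group. This gap was wider than any spread within the groups (log2 change 1.96, SE 0.296, adjusted p = 0.000708), and in trained muscle Tead4 rose by 1.51 (SE 0.321, adjusted p = 0.0131), or 2.08 without vehicle-trained library 2. Vgll2, a muscle cofactor of the TEAD proteins, fell in sedentary muscle from 46.3 ± 7.78 to 22.6 ± 6.01 CPM (log2 change -1.08, SE 0.276, adjusted p = 0.0456), a call that held in 11 of 27 other settings. Nfix, which directs fetal muscle genes, rose in trained muscle by 0.43 (SE 0.115, adjusted p = 0.0474, held in 10 of 27 other settings).

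Of the 14 tested bHLH partners and inhibitors, E proteins and Id proteins among them, 0 rose and 1 fell in both sedentary and trained muscle, with medians of 0.06 and -0.07. Over all tested genes 1.02% rose and 1.31% fell in sedentary and 1.99% and 1.30% in trained muscle, with medians of 0.01 and -0.03. The 1 of this list that fell was Bhlhe40, a repressor that is itself a clock target. It went from 164 ± 18.5 to 79.6 ± 10.7 CPM in sedentary muscle (log2 change -1.11, SE 0.238, adjusted p = 0.0135) and fell by -1.42 in trained muscle (SE 0.287, adjusted p = 0.00921). Without knockout trained libraries 3 and 5 the adjusted p in trained muscle was 0.0584. A fit of the 2 trained groups alone, in which 0.139% of all genes passed, ended the trained calls of Bhlhe40 (adjusted p = 0.315), Tead4 (0.375), Nfix (0.538), Chrnb1 (0.362) and Actc1 (0.254), while that of Chrna1 held. Tcf4, an E protein that pairs with the regulatory factors, held 119 ± 16.6 and 117 ± 15.9 CPM in the sedentary groups.

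Of the 12 repressors and kinases of MEF2, 1 rose and 0 fell in sedentary muscle and 0 changed in trained muscle (1 and 1 in both without vehicle-trained library 2). The shares of all tested genes that rose and fell were 1.02% and 1.31% in sedentary and 1.99% and 1.30% in trained muscle. Without that library they were 3.14% and 3.84% in sedentary and 5.01% and 3.65% in trained muscle. Camk2d, a calcium-dependent kinase that acts on class IIa histone deacetylases, rose from 64.0 ± 4.74 to 102 ± 8.37 CPM (log2 change 0.62, SE 0.110, adjusted p = 0.00343) with a log2 change of 0.46 in trained muscle (SE 0.126, adjusted p = 0.0542, and 0.0249 without that library). None of 15 genes known as targets of MEF2 passed the edgeR test in either comparison, 3 and 5 of them having an unadjusted p under 0.05 (9.81% and 17.2% of all genes), and the medians were -0.11 and -0.12. Without vehicle-trained library 2, 2 fell in sedentary muscle, Ppargc1a (log2 change -0.54, adjusted p = 0.0148) and Hdac9 (-0.74, adjusted p = 0.000416). In trained muscle Pgam2 then rose (0.38, adjusted p = 0.0497) and Hdac9 fell (-0.58, adjusted p = 0.0173), and the trained median turned to 0.25, beside 0.00 over all tested genes. Among them Pgam2, the glycolytic phosphoglycerate mutase of muscle, held 1247 ± 32.5 CPM in vehicle and 1315 ± 63.9 CPM in knockout sedentary libraries. No gene of these lists passed the test for training or for the interaction over all samples, and Pgam2 rose with training in knockout muscle without that library (0.50, SE 0.110, adjusted p = 0.0415).

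Markers of the cells that hold these factors were read beside them. Of 11 tested satellite cell markers other than the factors, 0 passed in sedentary muscle. The summed level of all 13 listed was 262 to 364 CPM in vehicle and 381 to 447 CPM in knockout libraries, without overlap. Of single tested genes 9.40% did not overlap in this comparison, and no such share was computed for sums of genes. With the sedentary test repeated without vehicle-trained library 2, 2 markers rose, Cdh15 (log2 change 0.36, adjusted p = 0.0382) and Sdc4 (0.90, adjusted p = 3.76e-07). In trained muscle 1 rose, Notch3 (0.61, SE 0.140, adjusted p = 0.0209). Leaving out library 2 made it 3, with Cdh15 (0.52, adjusted p = 0.0134) and Sdc4, whose log2 change turned from -0.69 (adjusted p = 0.597) to 0.79 (adjusted p = 2.43e-05). The sums in trained muscle were 306 to 375 CPM in vehicle libraries other than 2, 531 CPM in library 2 and 309 to 383 CPM in knockout samples. Smooth muscle and pericyte markers summed to 428 to 531 and 527 to 683 CPM in the sedentary groups. All 9 macrophage markers had a positive change with training in vehicle muscle (median log2 change 1.08). Of these 0 passed the edgeR test, while all 9 had an unadjusted p under 0.05, beside 15.2% of all tested genes. Of the endothelial, fibro-adipogenic, adipocyte, Schwann cell, blood, and smooth muscle and pericyte markers, 0 passed between the sedentary groups, and 1 rose in trained muscle, the endothelial gene Egfl7. With vehicle-trained library 2 left out, 1 fibro-adipogenic marker of 7 rose in sedentary and 1 fell in trained muscle. Summed levels of fibre and macrophage markers overlapped between the trained groups. The muscle fibre markers summed to 88357 to 105597 CPM in vehicle libraries other than 2 and 94832 to 115142 CPM in knockout samples. Slow fibre markers summed to 422 to 1356 and 978 to 1319.8 CPM, and macrophage markers to 180.3 to 437 and 63.7 to 362 CPM. Of these 11 muscle fibre markers 0 passed in sedentary and 1 in trained muscle, Tnnc2 (log2 change 0.60, SE 0.162, adjusted p = 0.0494), and 2 without library 2. All 7 slow fibre markers had a positive change in trained muscle (median 0.87). Of these 0 passed the edgeR threshold and 5 had an unadjusted p under 0.05, beside 17.2% of all tested genes. Without library 2, 1 passed the threshold, Tnni1. The interaction was positive for all 7 (median 1.24, 0 past the threshold). All 9 macrophage markers had a negative change in trained knockout against trained vehicle muscle (median -0.76, 0 past the threshold). Of these 3 had an unadjusted p under 0.05, beside 17.2% of all tested genes. The part of these cells in the levels of Myod1, Myog, Myf6 and Pax7 was not tested.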

How the data were processed

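The deposited table holds estimated counts per gene, made by the authors from RNA of 20 libraries. The table is named for a normalized unit, but 72.0% of values are whole and the columns sum to different totals. RNA was extracted with Trizol and a column kit, per the labels' protocols. STAR 2.7.8a, Partek, DESeq2, mm10 and GRCm39 are named in the submitters' processing notes, with no role given. Counts were rounded, and genes reaching 1 CPM in 5 or more libraries were tested with edgeR 4.0.16 (quasi-likelihood, TMM, 4 group means, 5 contrasts, R 4.3.3), with Benjamini-Hochberg adjustment over 14359 genes and a threshold of 0.05. Pairs of libraries whose noise at high counts was under 1.5 times that at low counts were summed (2 of 190 pairs, the next pair at 2.31). The code was tested on simulated data. Members and gene lists were chosen with earlier results of these data known. Named are the 8 factors, up to 4 genes of each list per contrast by smallest adjusted p under 0.05 (the 2 most abundant where none passed in any contrast), and the 2 genes most like each factor. Cdkn1a, Tcf4, Chrnd, Chrne, Cdh15, Sdc4, Ppargc1a, Hdac9 and the genes of vehicle-trained library 2 fall outside this rule and were chosen after their values were seen. Exon lengths and overlaps came from GENCODE M21 and promoters from RefSeq. Counting error grows at low counts, and Pax7 rests on 8 to 124 counts per library. Alternatives were DESeq2 1.42.0, other size factors, no filter, all libraries separate, a replicate block, only the compared groups, and each sample left out.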

Additional observations from a re-analysis of the deposited data

Results flagged for a closer look

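Within groups of 5 samples, a single value stood far from the other 4 by Dixon's criterion in 5 of the 24 combinations of factor and group that were tested, where chance gives about 1 in 20, or 1.20 of 24. In vehicle sedentary muscle, library 1 held 63.4 CPM of Myod1, the highest of its group, and library 2 held 8.25 CPM of Pax7, the highest of its group. In knockout sedentary muscle, library 5 held 160.1 CPM of Myf6, above the other 4. In vehicle trained muscle, library 2 held 36.9 CPM of Myog, the highest of its group, and 106 CPM of Mef2c, the lowest.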

How the results depend on the processing

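All 8 factors were recomputed for the knockout differences, but only those named above for training and the interaction. Of these 754 log2 changes, 723 kept their direction and their side of the threshold, 17 passed it and the rest turned sign. Outside this count, other values turned sign without vehicle-trained library 2. With training in vehicle muscle Myod1 went from -0.13 to 0.11 and Myf5 from 0.08 to -0.01. In the interaction Myod1 went from 0.03 to -0.20 and Mef2c from 0.25 to -0.01. The number of factors that passed in sedentary muscle was 0 over all samples, and 2 (Myod1 and Myog) with only the compared groups in the fit. With vehicle-trained library 2 left out it was 2 with DESeq2 and 2 with 20 separate libraries. Of all tested genes 334, 1177, 1245 and 1051 passed in these settings, in this order. Leaving out 1 sample gave 0 to 2 factors. It gave 2 without vehicle-trained library 2, beside 1002 of all genes. It gave 1, Myf6, without knockout sedentary library 5, beside 266 of all genes. In trained muscle the number of factors was 1 (Myf6) with 20 separate libraries, beside 1225 of all 14359 tested genes. It was 2 (Myf6 and Myod1) with these and no vehicle-trained library 2, beside 2048 of all genes. Settings with 20 libraries, the replicate block included, count the libraries of each summed pair as separate samples and so overstate the number of samples. With a replicate block on 20 libraries, 1 factor passed in trained muscle and 0 in sedentary muscle, beside 980 and 336 of all genes. Without vehicle-trained library 2 the block gave 3 (Myf6, Myod1 and Myog) in sedentary and 1 in trained muscle, beside 975 and 1944 of all genes. The numbers did not pair the samples, since same-number correlations lay between -0.337 and 0.295, so the block has no design behind it. No factor passed for training or the interaction in any setting. DESeq2, however, gave an adjusted p to only 3123 genes in the interaction and 6656 for training in knockout muscle. Leaving out 1 sample moved the sedentary change of Pax7 between -0.11 and 0.18, with sign turns at 0.18, 0.01 and 0.06 (without vehicle library 2 and knockout libraries 2 and 4). It moved that of Mef2a between -0.08 and 0.02, with turns at 0.02, 0.02 and 0.00 (without vehicle libraries 1 and 5 and knockout library 3). In trained muscle Myog ranged from -0.81 to 0.23, Mef2c from -0.11 to 0.26 and Cdkn1a from -0.89 to 3.79, each turning without vehicle-trained library 2. With that library left out, Myog was 0.23, 0.22 and 0.24, Mef2c -0.11, -0.14 and -0.12 and Cdkn1a 3.79, 3.83 and 3.80 with DESeq2, with 20 separate libraries and with the replicate block, and Cdkn1a was 2.04 with the block and all libraries. The causes were not tested.

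Over all genes, 334 passed in sedentary muscle, against 537 with DESeq2, 1177 with only the compared groups, 1002 without vehicle-trained library 2, and 975 to 1245 in other settings without it. In trained muscle 473 passed, against 907 with DESeq2, 1225 with separate libraries, 980 with the block, 20 with only the compared groups, 1244 without vehicle-trained library 2 (1616 to 2048 in other settings without it), 299 without knockout trained library 2 and 177 without libraries 3 and 5. For training in knockout muscle 0 passed, against 198 with DESeq2, 49 with separate libraries, 45, 121 and 397 without vehicle-trained libraries 1 or 2 or knockout trained libraries 1 and 4, and 160 to 715 in other settings without vehicle-trained library 2. For training in vehicle muscle 0 passed against 15 with DESeq2, and 1 to 22 in 4 other settings. The interaction gave 0 against 26 and, without vehicle-trained library 2, 116 with DESeq2. Targets of the regulatory factors that passed numbered 2 in sedentary muscle against 4 to 6 in 5 settings, and 3 in trained muscle against 1 with only the compared groups and 5 to 9 in 7 settings.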
